A study of Mus musculus with 24 samples.

Results

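The genes described here are those of MHC class II antigen presentation: the chain genes H2-Aa, H2-Ab1 and H2-Eb1, the invariant chain gene Cd74, the H2-DM genes H2-DMa and H2-DMb1, and Ciita. They were chosen by gene name on the array, with all of their non-control probes, which gave 7 genes and 12 probes of 27398 gene names and 41174 probes. Expression was measured in L4 and L5 dorsal root ganglia (DRGs) of adult male C57BL/6J mice on Agilent 4x44K mouse arrays, with 24 samples in 6 groups of 4. WT mice were Nfil3+/+ littermates. KO mice were Nfil3-/-, lacking the transcriptional repressor NFIL3 in all cells: the floxed gene had been deleted with Cre driven by a human CMV promoter, and the line was kept on C57BL/6J by backcrossing. In both genotypes the left sciatic nerve was transected and its ends coaptated. DRGs were taken at day 2 or day 5, and control DRGs came from the non-injured side, so the controls are ganglia of lesioned animals and not of unoperated ones. Sample titles call these controls Day0, and the methods do not give the day on which they were taken. The labels call the tissue DRG neurons, but whole ganglia were dissected, and markers of satellite glia, Schwann cells and macrophages were all well above background.

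MHC class II molecules are pairs of an alpha and a beta chain that carry peptides from endosomes to the cell surface, where CD4 T cells read them. The invariant chain fills the binding groove of new molecules and steers them to endosomes, and the H2-DM heterodimer then swaps its last fragment for a peptide. CIITA is the coactivator that switches the chain genes on, through factors bound to paired X and Y boxes in their promoters, and interferon gamma is its best known inducer outside professional antigen presenting cells. In nerve and ganglion, class II is known mainly from resident and recruited macrophages.

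Several probes read the same gene, and the sequences of those in coding regions show what each can tell apart. H2-Ab1 has 4 probes. The probes A_51_P215242 and A_52_P570717 overlap over 31 bases, of which 29 match, and the 2 differing bases are in capitals. The latter could not be placed on the genome in the array's annotation and was designed on a different H2-Ab1 cDNA record.
A_51_P215242: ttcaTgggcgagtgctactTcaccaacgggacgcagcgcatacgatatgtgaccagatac
A_52_P570717: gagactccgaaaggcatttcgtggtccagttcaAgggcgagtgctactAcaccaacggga
A_51_P215237: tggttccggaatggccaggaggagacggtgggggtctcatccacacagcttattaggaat
The third probe, A_51_P215237, was printed at 10 spots of every array, and the spread between its spots (SD of log2 intensity within a sample) was 0.16 to 0.28, with a median of 0.22. The fourth, A_52_P683598, is the brightest H2-Ab1 probe. The 4 probes followed each other closely over the 24 samples, with Pearson's r of 0.97 to 0.99 between pairs. They read 1 transcript in the same RNA, so these correlations describe the probes and not separate evidence.

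H2-Aa has 2 coding probes and H2-Eb1 has 1, whose database record is titled as an I-A beta chain of NOD mice although its position on the array's map and its gene name are those of H2-Eb1. The second H2-DMb1 probe, A_52_P146877, is annotated to the transcripts of both H2-DMb1 and its neighbour H2-DMb2, so it cannot separate these genes.
A_52_P343306 (H2-Aa): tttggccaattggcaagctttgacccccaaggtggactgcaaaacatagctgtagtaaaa
A_51_P119760 (H2-Aa): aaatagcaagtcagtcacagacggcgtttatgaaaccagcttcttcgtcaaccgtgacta
A_51_P393226 (H2-Eb1): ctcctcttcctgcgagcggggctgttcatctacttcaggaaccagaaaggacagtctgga
A_52_P146877 (H2-DMb1): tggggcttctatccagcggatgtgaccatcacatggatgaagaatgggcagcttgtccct
On build mm9, as the array files give it, the brightest probe of H2-DMa lies at chr17:34274300-34274863 and that of H2-DMb1 at chr17:34297109-34297168. H2-Ab1 follows at chr17:34406059-34406118, H2-Aa on the minus strand at chr17:34421285-34421344 and H2-Eb1 at chr17:34452050-34452511, so these 5 genes sit together in the class II region. Ciita lies apart, at chr16:10526303-10526362.

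The promoters of the class II genes are shown because the X and Y boxes are how CIITA reaches them. The RefSeq promoter table used (GRCm38.p6) gave a start for H2-Aa, H2-Eb1 and H2-DMb1 and 2 starts for H2-DMa. Promoters of H2-Ab1 and Ciita were not analysed here. The 150 bases before the start are printed for the first 3, with matches in capitals.
H2-Aa, chr17:34287824-34287973, minus strand: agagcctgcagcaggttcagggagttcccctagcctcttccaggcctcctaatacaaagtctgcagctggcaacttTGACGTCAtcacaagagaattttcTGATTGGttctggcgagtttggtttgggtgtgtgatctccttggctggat
H2-Eb1, chr17:34305717-34305866, plus strand: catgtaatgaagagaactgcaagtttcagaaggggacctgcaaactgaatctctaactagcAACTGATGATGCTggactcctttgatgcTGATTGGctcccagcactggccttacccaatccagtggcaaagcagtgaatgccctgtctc
H2-DMb1, chr17:34153041-34153190, plus strand: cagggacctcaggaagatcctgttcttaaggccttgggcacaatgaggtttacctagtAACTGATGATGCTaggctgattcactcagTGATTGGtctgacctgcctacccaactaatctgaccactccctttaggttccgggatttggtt
The Y box letters TGATTGG stood 50 bases before the start of H2-Aa, 61 before that of H2-Eb1 and 63 before that of H2-DMb1. The longest run of letters that the promoters of H2-Eb1 and H2-DMb1 share is AACTGATGATGCT. It is used here to mark the X box, whose limits were not determined. The run began 89 bases before the start in H2-Eb1 and 92 before it in H2-DMb1. H2-Aa held TGACGTCA, the full cyclic AMP response element, which CREB binds and which the X2 part of class II X boxes resembles, from 74 bases before the start. Both strands were searched over the 250 bases before each listed start. Among all 32851 listed starts of that length the Y box letters occurred in 7.23%, TGACGTCA in 1.55% and the shared run in 0.00609%, which is the same 2 starts. The letters of that run were taken from these sequences, so its count is a description. No match to any of the motifs stood before either start of H2-DMa. No X box letters other than this run and no other form of the Y box were searched, so a missing match does not mean that a box is absent. The letters TTANGTAA, a form of the site that NFIL3 binds, occurred in 2.06% of all starts and in 0 of the 5 starts of these genes.

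**Figure D1:**
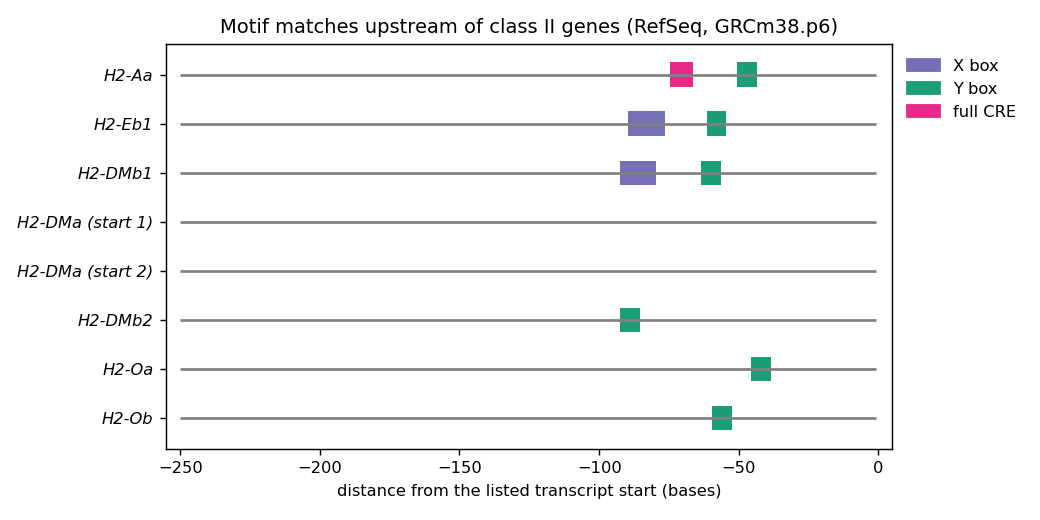
Matches to the run shared by H2-Eb1 and H2-DMb1 (labelled X box), the Y box and the full cyclic AMP response element (CRE). The 250 bases before the listed transcript starts of class II genes are shown, with 1 line per start. The x axis gives the distance from the start in bases. H2-Eb1 and H2-DMb1 hold the shared run followed by a Y box, and H2-Aa holds the CRE and a Y box. H2-DMb2, H2-Oa and H2-Ob hold the Y box letters and no other match, and the 2 lines of H2-DMa are empty. Only these exact letters were searched, so a missing match does not mean that a gene lacks an X or Y box.

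All values below are log2 intensities after background correction and quantile normalization, and differences between groups are differences of log2 means. A probe was called where limma's adjusted p (Benjamini-Hochberg over all 41174 probes) was under 0.05. All 12 probes were well above background in all 24 samples, and between 54.5% and 72.3% of all probes were so per sample. Nfil3 itself was between 8.44 and 11.08 in the 12 WT samples and at most 7.59 in the 12 KO samples. That highest KO value belongs to the library labelled KO control replicate 4. Its title says Day0, as do those of the other controls, but another label gives day 5. Nfil3 was well above background there and in none of the other 3 KO controls (at day 2 and at day 5 it was so in 2 of 4 KO samples each, at 5.30 to 6.22). A second library, WT day 2 replicate 3, stood apart from its group for every class II gene. In it the brightest probes of the 7 genes were 0.64 to 1.22 above the highest of the other 3 WT day 2 samples, and 4 of the 7 were at least 1 above it, as were 1.66% of all genes. Its partner on the same array was KO day 2 replicate 1. Results are given with all samples and, where the call or the size changes, without these libraries.

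The chain genes and Cd74 were lowest at day 2 and highest at day 5 in both genotypes, and the clearest difference was that between the 2 days. From day 2 to day 5 their 8 probes differed by 0.94 to 1.24 in WT, where 4 passed the test, and by 1.08 to 1.40 in KO, where 7 passed. Of all probes, 0.522% were called higher at day 5 than at day 2 in WT and 0.641% in KO, with medians over all probes of -0.01 in both, against medians over the 12 class II probes of 1.04 and 1.26. Against the control ganglia the shifts were smaller. At day 5 all 12 probes were higher in both genotypes, of which 3 were called in WT (background 5.98% of probes called higher) and 0 in KO (background 5.62%). At day 2 the 8 probes of the chain genes and Cd74 were all lower, with 2 called in KO (background 5.93% called lower) and 0 in WT (background 10.2% called in either direction). At an unadjusted p under 0.05 these counts over the 12 probes were 9 higher in WT and 2 higher in KO at day 5 (10.1% and 9.84% of all probes), and 0 in WT (21.9% in either direction) and 8 lower in KO (13.7%) at day 2. Fewer cells of a type and less RNA per cell cannot be told apart in whole ganglia.

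H2-Ab1, which encodes the beta chain of the I-A molecule, held 2 of the 3 calls in WT at day 5 and both calls in KO at day 2, on 3 of its 4 probes. On the probe with 10 spots the 4 WT controls gave 8.98, 9.12, 9.11 and 9.62, the WT day 2 samples 8.77, 8.49, 9.77 and 8.49, and the WT day 5 samples 10.15, 10.003, 9.99 and 10.07. The KO controls gave 9.41, 9.04, 9.41 and 9.80, the KO day 2 samples 8.82, 8.17, 8.53 and 8.78, and the KO day 5 samples 9.90, 10.23, 10.24 and 9.55. Every WT day 5 sample was above every WT control, and every KO day 2 sample was below every KO control. The share of all probes whose groups did not overlap was not counted, here or below. WT day 2 spread widely because of replicate 3, at 9.77, which lay above all WT controls while the other 3 lay below all of them. The WT day 5 samples were 0.85 ± 0.24 (SE, limma, n = 4 against 4) above WT control, which is 1.80-fold, with an adjusted p of 0.0236. In KO the difference at day 5 was 0.56 ± 0.24 with an adjusted p of 0.163, and at day 2 it was -0.84 ± 0.24, which is 0.559 of the control level, with an adjusted p of 0.0296. From day 2 to day 5 the level rose 2.26-fold in WT (adjusted p = 0.0268) and 2.64-fold in KO (adjusted p = 0.00528). Probe A_51_P215242 was also called in WT at day 5, with 0.87 ± 0.28 (adjusted p = 0.0474), whereas A_52_P570717 missed the threshold there with 0.80 ± 0.26 (adjusted p = 0.0504) and was called in KO at day 2 with -0.85 ± 0.26 (adjusted p = 0.0407). The brightest probe, A_52_P683598, passed in neither of these, with 0.67 ± 0.29 in WT at day 5 (adjusted p = 0.151) and -0.89 ± 0.29 in KO at day 2 (adjusted p = 0.0518). On it the lowest WT day 5 sample, 11.91, was below the highest WT control, 12.02. The 4 probes thus differed in their calls and not in their direction.

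H2-Aa encodes the alpha chain that pairs with the product of H2-Ab1, and its 2 probes moved in the same direction over time. On A_52_P343306 the WT controls gave 8.21, 8.29, 8.43 and 8.76, the WT day 2 samples 7.83, 7.73, 8.91 and 7.82, and the WT day 5 samples 9.34, 8.98, 9.18 and 9.13. The KO controls gave 8.72, 8.17, 8.72 and 8.96, the KO day 2 samples 8.13, 7.68, 7.999 and 7.96, and the KO day 5 samples 9.19, 9.36, 9.68 and 8.69. On this probe, as on the H2-Ab1 probe with 10 spots, WT day 5 lay wholly above WT control and KO day 2 wholly below KO control. KO day 5 overlapped its control. The difference at day 5 was 0.73 ± 0.24 in WT, or 1.66-fold (adjusted p = 0.0477), and 0.59 ± 0.24 in KO (adjusted p = 0.133). At day 2 it was -0.35 ± 0.24 in WT (adjusted p = 0.443) and -0.70 ± 0.24 in KO (adjusted p = 0.0653). Day 5 was above day 2 by 1.08 ± 0.24 in WT (adjusted p = 0.0388) and by 1.29 ± 0.24 in KO (adjusted p = 0.00877). The second probe, A_51_P119760, gave 1.20 ± 0.27 (adjusted p = 0.0388) and 1.32 ± 0.27 (adjusted p = 0.0177). On the second probe WT day 5 overlapped WT control (lowest 8.86 against highest 8.862) and was not called, with 0.78 ± 0.27 (adjusted p = 0.0583).

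Cd74, the invariant chain gene, had 1 probe, on chromosome 18. Its levels were 10.81, 11.45, 11.23 and 11.89 in WT control, 10.99, 10.90, 11.63 and 10.37 at WT day 2, and 11.99, 12.05, 11.74 and 12.16 at WT day 5. In KO they were 10.92, 11.37, 11.21 and 11.89 in control, 11.02, 10.39, 10.36 and 10.999 at day 2, and 11.63, 12.49, 11.96 and 11.62 at day 5. The control samples spread over about 1 log2 unit in both genotypes and overlapped both day 2 and day 5, but the day 5 samples lay above all day 2 samples of their genotype. Day 5 was above day 2 by 1.01 ± 0.28 in WT (adjusted p = 0.126) and by 1.23 ± 0.28 in KO, or 2.35-fold (adjusted p = 0.0378). Against control the differences were 0.64 ± 0.28 in WT (adjusted p = 0.161) and 0.58 ± 0.28 in KO (adjusted p = 0.225) at day 5.

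H2-Eb1 encodes the beta chain of the second class II molecule, I-E. Its levels were 8.62, 9.04, 9.11 and 9.64 in WT control, 8.71, 8.52, 9.59 and 8.37 at WT day 2, and 9.63, 9.80, 9.60 and 9.91 at WT day 5. In KO they were 9.04, 9.12, 9.08 and 9.59 in control, 8.97, 8.33, 8.30 and 8.95 at day 2, and 9.45, 10.11, 9.86 and 9.44 at day 5. KO day 2 lay below all KO controls, and day 5 lay above day 2 in both genotypes without overlap, in WT only by the distance between replicate 3 at day 2 and the lowest day 5 sample. No contrast of H2-Eb1 passed: day 5 against day 2 gave 0.94 ± 0.25 in WT (adjusted p = 0.120) and 1.08 ± 0.25 in KO (adjusted p = 0.0501). The gene of its alpha chain partner, H2-Ea, is named on the array as a pseudogene, H2-Ea-ps, and its probe was not well above background in any sample. The H2-Eb1 values therefore do not show that an I-E molecule was made.

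The H2-DM genes were not lower at day 2, with differences from control of 0.46 and 0.49 in WT and 0.10 and 0.23 in KO for H2-DMa and H2-DMb1, none of them called. H2-DMa, which encodes the alpha chain of the peptide exchange factor, was at 8.52, 8.33, 8.49 and 8.44 in WT control, at 8.44, 8.73, 9.95 and 8.49 at WT day 2, and at 9.08, 8.87, 8.92 and 9.12 at WT day 5. In KO it was at 8.05, 8.50, 8.51 and 8.76 in control, at 9.18, 8.16, 8.28 and 8.61 at day 2, and at 8.75, 9.03, 9.05 and 8.89 at day 5. The WT controls, from 8.33 to 8.52, lay wholly below WT day 5, with a difference of 0.55 ± 0.26 that missed the threshold (adjusted p = 0.202). H2-DMb1, the beta chain gene, was at 10.21, 10.08, 10.02 and 10.53 in WT control, at 10.13, 10.78, 11.87 and 10.01 at WT day 2, and at 10.90, 10.52, 10.43 and 10.74 at WT day 5. In KO it was at 9.74, 10.12, 10.15 and 10.18 in control, at 11.14, 9.53, 9.71 and 10.73 at day 2, and at 10.36, 10.86, 10.68 and 10.50 at day 5. Day 2 was the most variable time for both genes, with an SD of 0.85 in WT and 0.78 in KO for H2-DMb1 against 0.23 and 0.21 in the controls. The highest day 2 sample of each genotype (WT replicate 3 and KO replicate 1) came from the same array. These samples also had the highest Schwann cell marker level (mean of 5 genes, given below) of their group, 13.81 and 13.23. By mean level of the H2-DM genes, the day 2 samples of each genotype ranked in the same order as by that Schwann cell level. The part of the array and of the Schwann cell level in the H2-DM values was not tested. Day 5 against day 2 gave 0.09 ± 0.26 for H2-DMa and -0.05 ± 0.34 for H2-DMb1 in WT, and 0.38 ± 0.26 and 0.33 ± 0.34 in KO, with adjusted p between 0.719 and 0.988. The 95% intervals of the WT differences were -0.45 to 0.63 for H2-DMa and -0.77 to 0.67 for H2-DMb1, beside 0.58 to 1.58 for H2-Aa. The difference between the H2-DM and the chain genes was not tested.

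Ciita, the coactivator gene, was highest at day 5 in both genotypes, with no contrast that passed. Its levels were 5.60, 5.89, 6.18 and 6.97 in WT control, 6.10, 5.81, 7.08 and 5.99 at WT day 2, and 6.57, 6.94, 6.67 and 6.51 at WT day 5. In KO they were 6.00, 5.86, 6.14 and 6.52 in control, 5.97, 5.89, 5.93 and 5.99 at day 2, and 6.53, 7.17, 6.62 and 6.26 at day 5. The KO day 2 samples were close together (SD 0.04) and below all KO day 5 samples, with a difference of 0.70 ± 0.27 (adjusted p = 0.352), and at day 5 both genotypes were 0.51 ± 0.27 above control (adjusted p = 0.280 in WT and 0.286 in KO).

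In the order of group means on the brightest probes, the day 5 groups were highest and the day 2 groups lowest for Cd74, H2-Aa, H2-Ab1 and H2-Eb1. For these 4 genes the gap between the lower day 5 group and the higher control group exceeded the larger SD of the pair, and no other neighbours differed by more than their SD. For H2-DMa, H2-DMb1 and Ciita no pair of neighbours did.

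**Figure D2:**
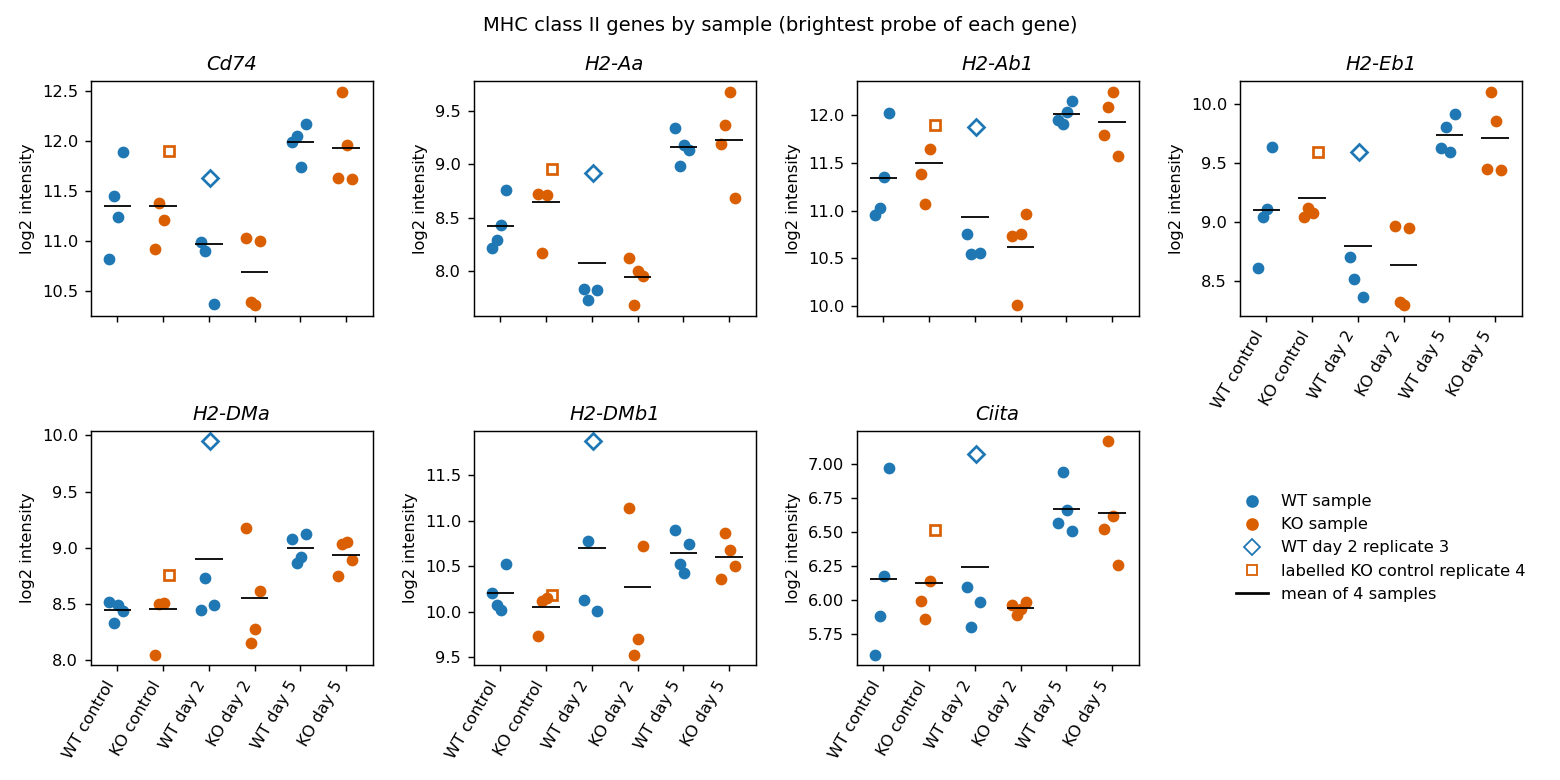
Log2 intensity (y axis) of the brightest probe of each of the 7 genes in every sample, by genotype and time (x axis), with black lines for the means of 4 samples. The chain genes and Cd74 dip at day 2 and are highest at day 5 in both genotypes, while H2-DMa and H2-DMb1 have widely spread day 2 samples, led by WT day 2 replicate 3 (open diamonds). The open squares are the library labelled KO control replicate 4.

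**Figure D3:**
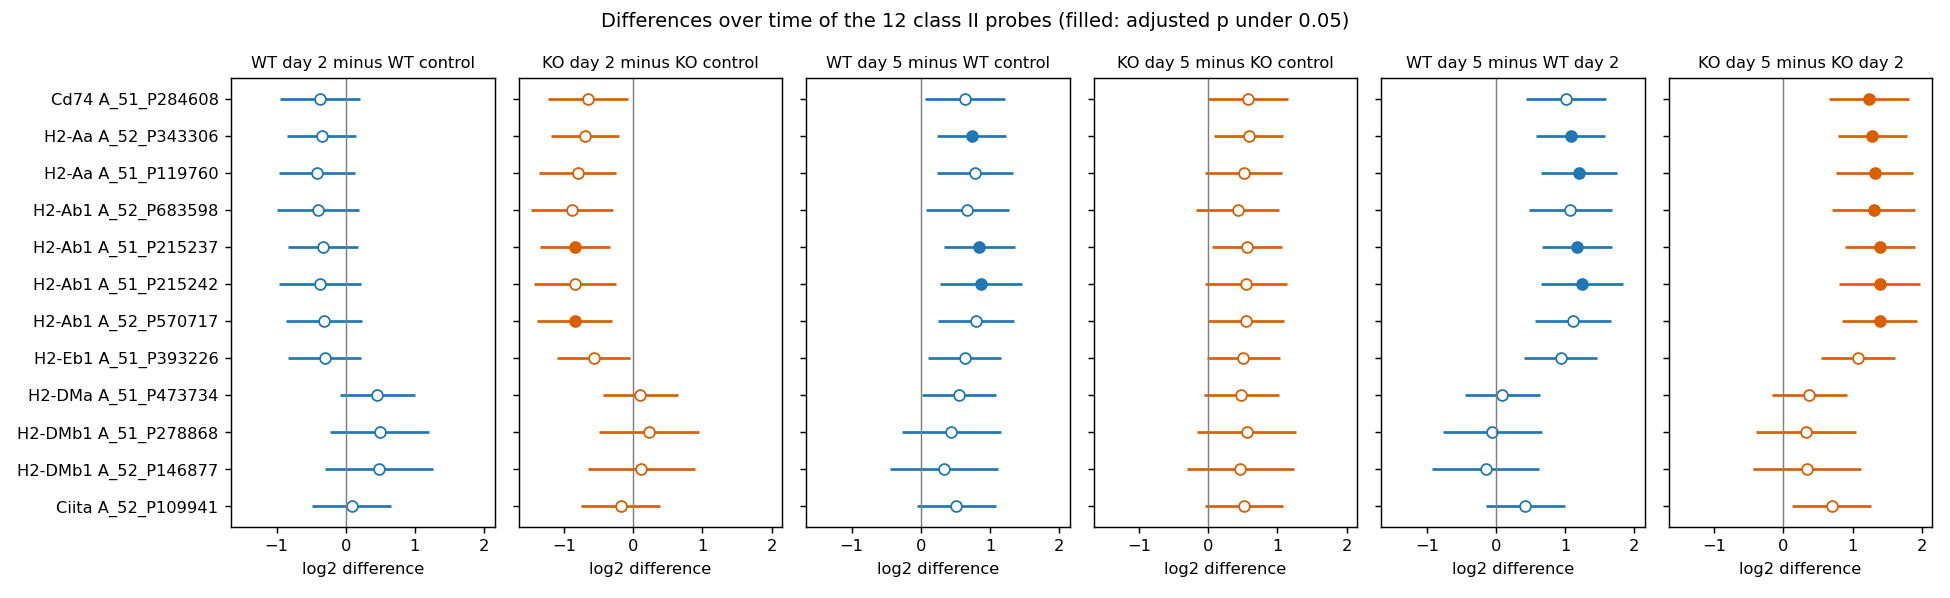
Log2 differences (x axis) of the 12 class II probes (y axis) between times, with 95% confidence intervals from limma (n = 4 against 4), WT in blue and KO in orange. Filled points passed an adjusted p of 0.05. The 8 probes of the chain genes and Cd74 lie below 0 at day 2, above 0 at day 5 and at 0.94 to 1.40 between the days, whereas the H2-DM probes lie at -0.15 to 0.38 between the days.

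Which probes passed depended on single libraries. Without WT day 2 replicate 3 the WT difference between day 2 and control became -0.57 to -0.72 for the 8 probes of the chain genes and Cd74, in place of -0.31 to -0.42, still with 0 called. The counts called became 6 of 12 in WT at day 5, 6 lower in KO at day 2 and 1 in KO at day 5. Over all 41174 probes, in either direction, the counts in the same order were 5442, 4700 and 5048. Between the days all 8 probes of the chain genes and Cd74 were then called in both genotypes, with H2-Ab1 (10 spots) at 1.47 in WT (adjusted p = 0.00137) and 1.40 in KO (adjusted p = 0.000468). Over all probes 288 were called between the days in WT and 387 in KO, in either direction. The WT differences of the H2-DM probes at day 2 were then 0.10 to 0.12, in place of 0.46 to 0.49. H2-DMa at WT day 5 then passed, with 0.55 (adjusted p = 0.0445). Without the library labelled KO control replicate 4, which was the highest KO control for the chain genes and Cd74, the KO differences at day 2 shrank to -0.45 to -0.75 for these 8 probes and 0 were called, and those at day 5 were 0.56 to 0.76, also with 0 called. Other libraries mattered as well. Apart from the fit without WT day 2 replicate 3, the share of all probes called in fits without a library is not given here. A general change in calls can thus not be told apart from a change in the class II probes. The 3 calls in WT at day 5 became 0 or 1 without any 1 of WT control replicates 1, 2 and 3, WT day 2 replicate 1, the 4 WT day 5 samples, KO control replicates 1 and 3, KO day 2 replicates 3 and 4 or KO day 5 replicates 1 and 2, and 7 without WT control replicate 4. The 2 calls in KO at day 2 became 0 without KO control replicate 1 or 3 or KO day 2 replicate 2, 1 without KO day 2 replicate 3, 4 without WT control replicate 4, and 5 without KO control replicate 2 or KO day 5 replicate 4. Between the days the 4 calls in WT became 0 without any 1 of the other WT day 2 samples or of the WT day 5 samples, and 1 or 2 without WT control replicate 2 or 3, KO control replicate 1 or 3 or KO day 5 replicate 1 or 2. The 7 calls in KO became 3 without KO day 2 replicate 2 or KO day 5 replicate 2 and 2 without KO day 5 replicate 3. The direction of the chain genes and Cd74 was the same in all of these fits.

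Nfil3 deletion was compared at each time, which asks whether the repressor affects these genes. None of the 12 probes was called in the controls, at day 2 or at day 5 (lowest adjusted p = 0.9999 in limma at each time), and none had an unadjusted p under 0.05. Over all probes 0% were called in control and 0.0121% at day 2 and at day 5. In control the 12 differences ran from -0.16 to 0.22 and at day 5 from -0.17 to 0.07. At day 2 all 12 were lower in KO, by -0.49 to -0.13, but without WT day 2 replicate 3 they ran from -0.14 to 0.15. For H2-Ab1 (10 spots) the 95% interval of KO minus WT was -0.30 to 0.72 in control, -0.81 to 0.20 at day 2 and -0.58 to 0.43 at day 5, and for Cd74 at day 5 it was -0.64 to 0.52. The time by genotype interaction was called for 0 of the 12 probes (F test in limma, adjusted p of 1) and for 0% of all probes, and 0 class II probes had an unadjusted p under 0.05 in it. A call in 1 genotype and not in the other, as for H2-Aa at day 5, is thus not shown to be a difference between genotypes.

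**Figure D4:**
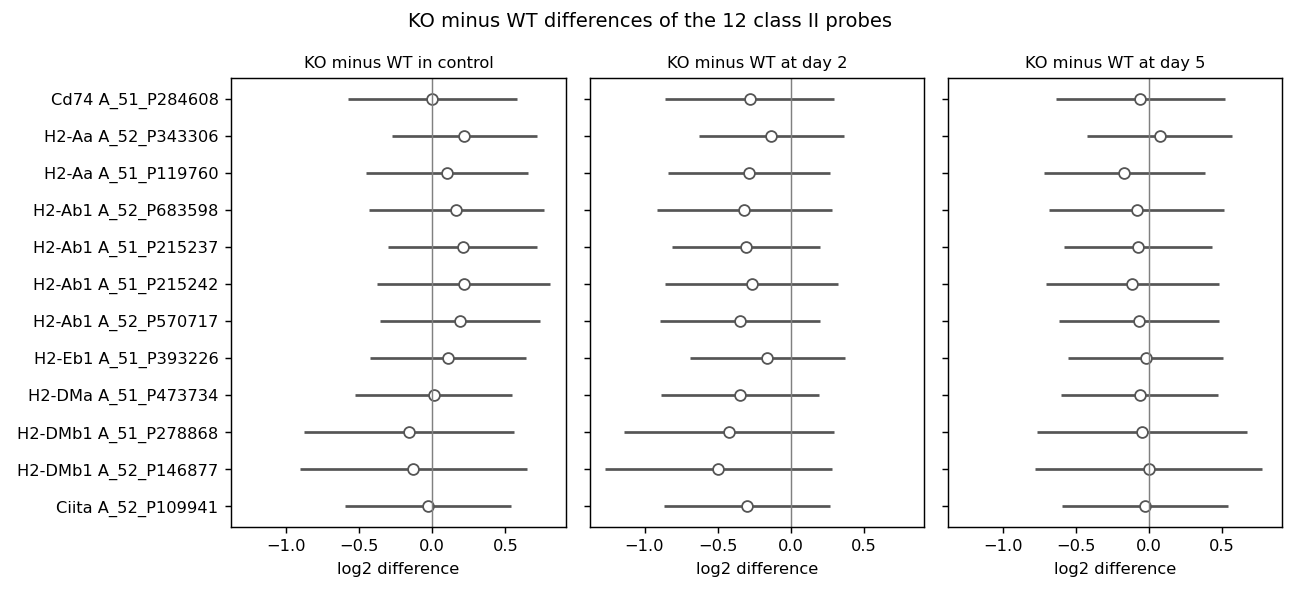
KO minus WT differences in log2 intensity (x axis) of the 12 class II probes (y axis) in control ganglia, at day 2 and at day 5, with 95% confidence intervals from limma (n = 4 against 4). All intervals include 0, and at day 2 all points lie below it.

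The wider class II pathway was described with a list of 31 other genes. In WT at day 5, 7 of the 31 were called higher and 0 lower, against 6.43% and 7.49% of all genes by their brightest probe. In KO at day 5, 6 of the 31 were higher and 0 lower, against 6.14% and 6.70%. At day 2 there were 2 higher and 1 lower in WT (5.16% and 6.06% of all genes) and 4 higher and 0 lower in KO (5.54% and 6.40%). Over the list the median day 5 difference was 0.10 for WT and 0.22 for KO, against -0.03 over all genes for both.

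Among the genes of endosomal processing, Ctss (cathepsin S), which trims the invariant chain, rose by 2.06 ± 0.25 in WT (adjusted p = 6.5e-06) and by 1.88 ± 0.25 in KO (adjusted p = 2.25e-05) at day 5. Ifi30, the lysosomal thiol reductase that unfolds antigens, rose by 0.91 ± 0.16 (adjusted p = 0.000572) and 0.77 ± 0.16 (adjusted p = 0.00288). Ctsd rose by 0.37 in WT at day 5 (adjusted p = 0.0360) and Ctsl by 0.46 in KO at day 2 (adjusted p = 0.00839), while Ctsb and Lgmn passed in no lesion contrast. March1, the ubiquitin ligase that removes class II from the surface, rose by 1.02 ± 0.16 in both genotypes at day 5 (adjusted p = 0.000146 in WT and 0.000163 in KO), and at 0.41 in KO at day 2 it passed only without WT day 2 replicate 3 (adjusted p = 0.108 with it and 0.0383 without). March8 did not pass. Of the co-stimulatory genes, Cd86 and Cd40 were well above background in 0 of the 4 WT controls. At WT day 5 they were at least 1.83-fold (adjusted p = 0.0119) and at least 1.44-fold higher (adjusted p = 0.000199), and in KO Cd40, well above background in 2 of 4 controls and all 4 day 5 samples, differed by 0.38 (adjusted p = 0.0114). Cd80 did not pass.

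Calls among the genes upstream of the class II promoters were of 0.31 to 0.47 in size. Jak2, a kinase of the interferon gamma receptor, rose by 0.35 to 0.47 in all 4 lesion contrasts (adjusted p between 0.00192 and 0.0181). Irf1, through which interferon gamma induces Ciita, passed in none, with 0.07 at WT day 5, and Ifng itself was well above background in 2 of 24 samples. Among the factors that bind the X and Y boxes, Rfxap fell by 0.31 in WT at day 2 (adjusted p = 0.0168), Nfyb rose by 0.35 in WT and 0.34 in KO at day 2 (adjusted p = 0.0434 and 0.0475), and Creb1 rose by 0.42 in KO at day 2 and day 5 (adjusted p = 0.0243 and 0.0204). Without WT day 2 replicate 3 Nfyb had an adjusted p of 0.0795 in WT and 0.0533 in KO, and without the library labelled KO control replicate 4 it had 0.0520 and 0.103 and Creb1 0.0686 and 0.0602 at day 2 and day 5 in KO. Rfx5 was well above background in 2 samples, both KO controls. Of the other class II genes, H2-DMb2 and H2-Ob were well above background in no sample. H2-Oa, which encodes a chain of the H2-DM inhibitor H2-O, was so in all 24 and did not pass, with 0.42 ± 0.26 in WT and 0.69 ± 0.26 in KO at day 5 (adjusted p = 0.377 and 0.0910). Cd4 and Lag3, which bind class II on T cells, passed in no contrast.

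The MHC class I list of 7 genes gave 0 calls in the 4 lesion contrasts and the 3 comparisons of genotypes by limma (at an unadjusted p under 0.05 there were 2 in WT at day 2, 2 in WT at day 5 and 0 in the others). At day 5 B2m, the shared light chain, was at 0.52 ± 0.20 in WT (adjusted p = 0.103) and H2-D1 and H2-K1 at 0.34 ± 0.15 and 0.07 ± 0.16. Without WT day 2 replicate 3, 1 of the 7 was called, B2m in WT at day 5 (0.52, adjusted p = 0.0167).

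Macrophage markers were higher at both times after the lesion, with calls already at day 2. All 8 (Cd68, Csf1r, Emr1, Aif1, Itgam, C1qa, Cx3cr1 and Mrc1) were called higher at day 5, by 1.38 to 2.22 in WT and 1.24 to 1.88 in KO, and at day 2 4 were higher in WT and 3 in KO, with all 8 differences above 0 in both. Without WT day 2 replicate 3 the day 2 counts were 2 in WT, where Aif1 and C1qa were lost, and 4 in KO, where Aif1 was added. Without the library labelled KO control replicate 4 Aif1 was called in KO at day 2 and Itgam was not. Aif1 rose by 1.68 ± 0.28, Csf1r by 1.83 ± 0.22 and C1qa by 2.22 ± 0.25 in WT at day 5. The mean log2 level of the 8 markers ran from 6.95 to 7.71 in WT control, 7.76 to 8.31 at WT day 2 and 9.004 to 9.30 at WT day 5, and from 6.95 to 7.59, 7.43 to 8.32 and 8.74 to 9.07 in KO, so the 3 times did not overlap in WT. The mean level of H2-Aa, H2-Ab1, H2-Eb1 and Cd74 ran from 9.65 to 10.58 in WT control, 9.28 to 10.50 at WT day 2 and 10.63 to 10.84 at WT day 5, and from 9.93 to 10.59, 9.10 to 9.72 and 10.33 to 11.01 in KO. Macrophage markers and class II genes were therefore both highest at day 5, but at day 2 the macrophage level was above all controls in WT and overlapped them in KO, while the class II level was below all controls in KO and in 3 of 4 WT samples. The part of the macrophage marker level in the class II values was not tested.

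**Figure D5:**
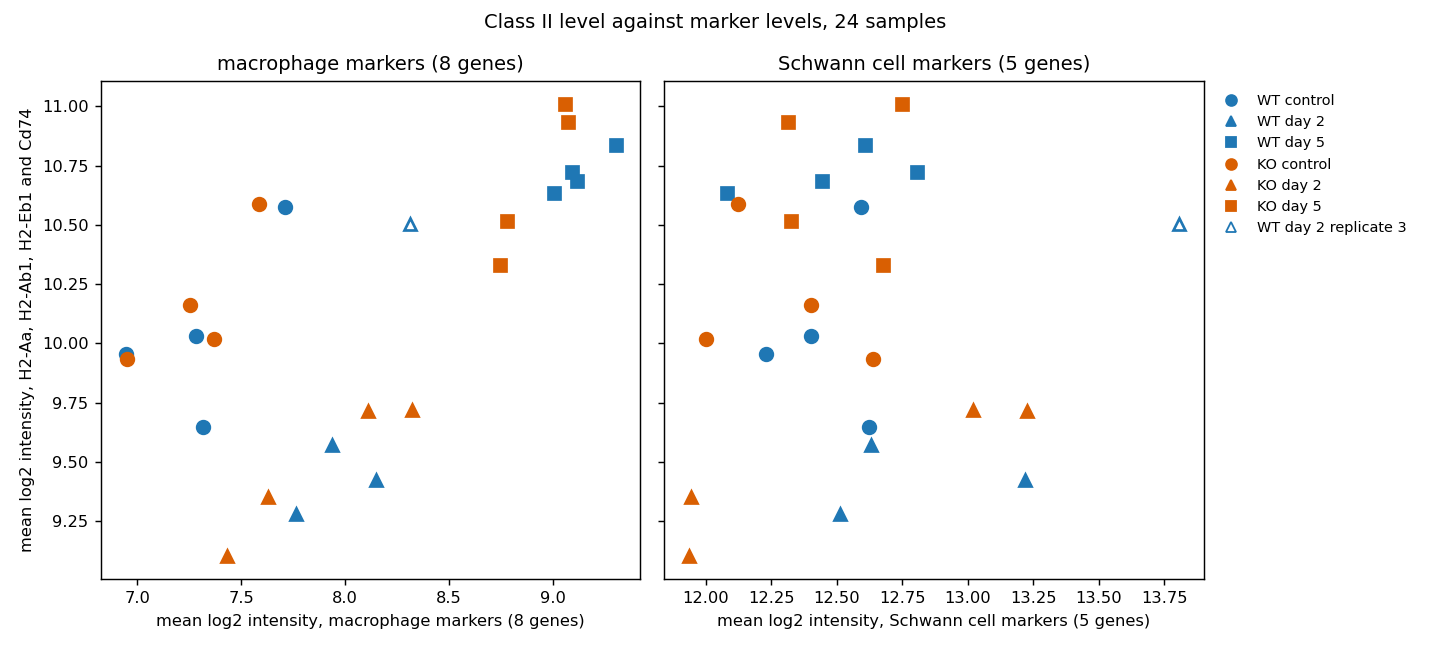
Mean log2 intensity of H2-Aa, H2-Ab1, H2-Eb1 and Cd74 (y axis) against that of 8 macrophage markers (left, x axis) and 5 Schwann cell markers (right, x axis), 1 point per sample. Day 5 samples are high for both class II and macrophage markers, while the day 2 samples (triangles) have less class II than the controls of their genotype, apart from WT day 2 replicate 3 (open triangle), which has the highest Schwann cell level of all samples, 13.81.

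Markers of other class II expressing cells were called in the dendritic cell list with all samples, and 1 B cell marker was called without WT day 2 replicate 3. Of 6 dendritic cell markers, Zbtb46 rose in all 4 lesion contrasts (by 0.86 ± 0.16 in WT at day 5) and Itgax at day 5 (by 0.76 ± 0.17 in WT and 0.53 ± 0.17 in KO), while Flt3 and Xcr1 did not pass and Cd209a was well above background in no sample. The defining B cell gene Pax5 was well above background in no sample, and none of the 5 B cell and 5 T cell markers was called in a lesion contrast with all samples. Cd79b was at 0.87 in KO at day 5, with an adjusted p of 0.112, and of 0.0423 without WT day 2 replicate 3. In WT at day 5 Cd79b was at 0.63 ± 0.34 and Ms4a1 at -0.01 ± 0.47, and Cd3e at 0.02, Cd3d at 0.41 and Cd8a at 0.13. Of the ganglion's own cells, the neuronal markers Nefh and Scn10a fell at day 5 in both genotypes and Tubb3 rose by 0.44 and 0.43, whereas Prph did not pass. Satellite glia showed Glul higher in all 4 contrasts (0.62 to 0.84), Fabp7 lower at day 2 (by 1.02 in WT and 0.82 in KO) and no call for Sox10. The Schwann cell markers Pmp22, Mbp, Prx and Mag passed in none.

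The library WT day 2 replicate 3 differed from its group in several of these lists at once. Its mean Schwann cell marker level was 13.81 against 12.51 to 13.22 in the other 3 WT day 2 samples, its class I level 11.34 against 10.18 to 10.45, its Cd79b level 8.98 against 6.70 to 7.96 and its neuronal level 13.19 against 13.26 to 13.52. Its macrophage level was 8.31 against 7.76 to 8.15. Their part in its class II values was not tested.

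The samples of 1 array also moved together. Within groups, the deviations of the Cy3 and Cy5 samples of an array correlated over the 12 arrays with r of 0.54 to 0.77 for the 12 class II probes. The consensus correlation within arrays that limma estimated over all probes, dim ones included, was 0.26. It is another measure on another set of probes, so the 2 do not show that class II probes depend more on the array. Both are given as a description because the 2 samples share a hybridization. With array as a random block, 1 probe was called at WT day 5, 6 at KO day 2 and 7 between the days in WT. The arrays lay on 3 slides, each scanned at 1 time, which did not hold all groups. Within slides the day 5 minus day 2 difference of the chain genes and Cd74 was 1.16 to 1.38 in WT on the only slide with both (2 samples each) and 1.27 to 1.44 and 1.12 to 1.46 in KO on 2 slides (2 against 1 and 2 against 2). Day 5 minus control was 1.00 to 1.05 and 0.34 to 0.54 in WT on 2 slides, and 0.50 to 0.73 and -0.07 to 0.18 in KO. On the slide of that last range the only control was the library labelled KO control replicate 4. Day 2 minus control in WT was -0.45 to 0.19 on the slide with WT day 2 replicate 3 and -1.03 to -0.62 on another. In KO the ranges on the 3 slides were -0.77 to -0.71, -1.53 to -0.94 and -0.375 to -0.10. The range of -1.53 to -0.94 was against the library labelled KO control replicate 4 alone. With slide as a block 1 probe was called at WT day 5, 1 between the days in WT and 8 between the days in KO.

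Over the 24 samples the 7 genes formed 2 groups by their brightest probes. Pearson's r was 0.86 to 0.98 among H2-Aa, H2-Ab1, H2-Eb1 and Cd74, 0.92 between H2-DMa and H2-DMb1, and 0.40 to 0.60 between the first 4 and the H2-DM genes, while Ciita correlated with the first 4 at 0.78 to 0.85. Among 17670 other genes the 5 most like the mean of the 7 standardized profiles were AW112010 (r = 0.93), Uba7 (0.90), Reep3 (0.90), BC013712 (0.90) and Fzd10 (0.89). Of these, BC013712 rose by 1.37 in WT and 1.15 in KO at day 5 (adjusted p = 0.000918 and 0.00467) and Fzd10 by 0.99 and 0.83 (adjusted p = 0.00260 and 0.0111), and the other 3 passed at day 5 in neither genotype. These correlations are over samples that share arrays and lesion status. The 5 genes were picked for their likeness over the same samples, so their day 5 differences and adjusted p are a description and not separate evidence.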

How the data were processed

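RNA of 24 DRG samples was labelled with Cy3 or Cy5 and hybridized by the authors, 2 samples per array, to 12 arrays on 3 slides. The deposited scanner files hold intensity values per spot (mean signal and median local background), which were used one channel at a time. Per the file headers, probe positions are on mm9. The Edwards background correction was followed by quantile normalization of the log2 values over 24 channels (limma 3.58.1, R 4.3.3). Control and outlier spots were left out and spots averaged per probe. One mean per group was fitted with empirical Bayes variances, and p-values were adjusted over 41174 probes. The brightest probe stands for a gene in lists. The methods call the replicates independent but do not name the animals behind each sample. The script was tested on simulated data.

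The members, gene lists and tests were chosen with earlier results of these data known. Genes named are the members, list genes that passed, the 3 brightest of each marker list and the 5 most alike in profile. Others named (such as Irf1, Rfx5, Ifng, Ctsb, Lgmn, March8, Cd80, Cd4, Lag3, Itgax, Scn10a, Cd209a and Pax5) were chosen after their values were seen. Some list genes count in the list totals and are not reported here by name. Alternatives were other background corrections, the scanner's processed signals, a filter on dim probes, averaged probes, dye, slide, array and replicate terms, an intensity trend and leaving out samples. The number of arrays limits the precision.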

Additional observations from a re-analysis of the deposited data

Results flagged for a closer look

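Among 72 sets of 4 samples (12 probes in 6 groups), 4 held a sample far from its group, where the gap to its nearest neighbour divided by the group's range exceeded Dixon's critical value. Chance marks about 1 in 20 such sets. WT day 2 replicate 3 was the high sample for H2-Aa (A_52_P343306), at 8.91 with a ratio of 0.912, and for H2-Ab1 (A_52_P683598), at 11.87 with a ratio of 0.843. The library labelled KO control replicate 4 was high for H2-Eb1, at 9.59 with a ratio of 0.861. KO control replicate 1 was low for H2-DMb1 (A_51_P278868), at 9.74 with a ratio of 0.860.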

How the results depend on the processing

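The counts of probes called were the values that moved, whereas the chain genes and Cd74 kept their direction in all 6 time contrasts under the 40 alternatives. The share of all probes called under each alternative is not given here, so a general change in calls cannot be told apart from one in these probes. In WT at day 5 (3 probes) the count was 5 without background correction, with normexp, with processed signals, with the filter on dim probes, with a dye term and with an intensity trend, 1 with averaged probes, with a slide block and with an array block, and 0 to 7 when 1 sample was left out. In KO at day 2 (2 probes) it was 6 without background correction, with normexp, with the filter on dim probes, with an array block and with an intensity trend, 5 with a dye term, 1 with averaged probes and 0 to 6 when 1 sample was left out. Between the days in WT (4 probes) it was 1 with averaged probes and with a slide block, 7 with an array block and 0 to 8 when 1 sample was left out. Between the days in KO (7 probes) it was 3 with averaged probes, where only 7 gene values are tested, and 2 to 8 when 1 sample was left out. In KO at day 5 (0 probes) it was 0 to 1 when 1 sample was left out. For WT at day 2, the 3 comparisons of genotypes and the interaction the count was 0 under every alternative.

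In alternatives added after seeing the data, leaving out both samples of the array with WT day 2 replicate 3 gave 6 probes in WT at day 5, 6 in KO at day 2, 2 in KO at day 5 and 8 between the days in WT, and leaving out WT day 2 replicate 3 with KO control replicate 4 gave 6, 2, 3 and 8.

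Signs turned only for small differences that were not called. H2-DMb1 between the days in WT was 0.073 with a slide block, 0.065 with an array block, 0.34 with either added alternative, and -0.28 to 0.34 when 1 sample was left out. Ciita in WT at day 2 was -0.19 with either added alternative and -0.19 to 0.35 when 1 sample was left out. In KO at day 2, H2-DMa was -0.11 and H2-DMb1 -0.06 without both samples of that array, and -0.11 to 0.23 and -0.06 to 0.47 when 1 sample was left out. H2-DMa between the days in WT was -0.059 to 0.442 when 1 sample was left out. The causes were not tested.

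Whether the replicate numbers pair the samples is not known, because the animals behind each sample are not named. Deviations of same-numbered samples correlated at -0.06 to 0.21 over the 4 pairs of each lesion contrast, too few pairs to settle it. With a replicate block 5 probes were called in KO at day 2, and the other counts were within 1.5 times those without it.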
